A study of Rattus norvegicus with 9 samples.

Results

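The transcriptome of untreated rat aortic smooth muscle cells was described from the Control libraries alone, which are 3 of the 9 RNA-seq libraries of the study and were chosen by their label and by no measured value. The cells are primary smooth muscle cells of wild-type genotype, taken from the rat aorta and used at passages 4 to 8. They were grown with 20% serum, held for 12 h at 0% serum and then kept at 2% serum, as were the cells of all groups, and Control cells received DMSO, a solvent. The other libraries, from cells given platelet-derived growth factor BB with or without the inhibitor PTUPB, were not used and no treatment contrast was made. Strain, sex and age of the rats, and whether the 3 libraries came from separate animals or cultures, are not given in the sources used here. Every SD therefore measures the spread between these 3 libraries only, which may be technical.

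Smooth muscle cells of the artery wall contract through actin and myosin filaments built from isoforms that are switched on together by serum response factor and its partner myocardin. In culture such cells are known to lower part of this contractile set and to make more extracellular matrix, proteases and cytokines, a state termed synthetic. Withdrawal of serum is used to bring cultured cells out of the division cycle before a stimulus.

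Levels are given as FPKM (fragments scaled to exon length and to the library total), the unit in which genes of different length can be compared, and per-library values stand in the order of replicates 1, 2 and 3. Means carry the SD over these 3 libraries (n = 3 throughout). Counts summed to 13897169, 16911050 and 15453654, so that 3 counts, taken as the floor of detection, corresponded to 0.216, 0.177 and 0.194 CPM (counts scaled to the library total). This floor and the counts cover counting error only. A gene is counted as expressed where its level was at least 1 FPKM in all 3 libraries, and listed without a count where all 3 libraries held 0. The biological coefficient of variation among the libraries was 0.153, over 11991 genes with a mean of 10 counts or more.

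Replicate 2 stood apart from the other libraries. The chi-square statistic per gene was 36.3 for replicates 1 and 2 and 28.6 for replicates 2 and 3, but 8.39 for replicates 1 and 3, so that no pair agreed within sampling noise. Across 10893 genes, the deviation of a library from the other libraries was correlated with exonic length at Spearman's rho 0.36 in replicate 1, -0.39 in replicate 2 and 0.15 in replicate 3, which are descriptions over genes of the same libraries. Structured non-coding RNAs, such as the small ribosomal RNAs and the RNA of ribonuclease P, made up 7.92, 94.6 and 9.38 CPM. Long transcripts thus tended to read lower, and structured RNAs read higher, in replicate 2. The part of this difference in the levels below was not tested, and the main values are therefore shown by library.

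Of the 32623 genes in the table, 10499 (32.2%) were expressed, 16936 (51.9%) had no count in any Control library and 5188 lay between. Leaving out replicate 2 gave 10662 expressed genes and 17454 without a count. Among the 18368 genes with a symbol of their own, 9761 (53.1%) were expressed and 4967 (27.0%) had no count. These shares over all genes are the background against which the counts of list members below are to be read. At higher thresholds, 5479 genes reached 10 FPKM, 677 reached 100 FPKM and 39 reached 1000 FPKM in all 3 libraries. The median of expressed genes was 12.0 FPKM. As a gauge of how complete the table is, 246 of 256 subunits (96.1%) of 8 complexes that every cell uses were expressed. These were the proteasome, RNA polymerase II, respiratory complexes I to III, ATP synthase, translation initiation factors, mitochondrial ribosomes and the signalosome. Among the 6 subunits without a count, Ndufs6, Ndufa1 and Mrpl36 belong to the mitochondria of all cells, whereas Psma8 and Psmb11 are proteasome forms of testis and thymus. A gene listed at 0 was for this reason not read as absent from the cells.

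Transcripts of the mitochondrial genome, of translation and of secreted matrix proteins were the most abundant. The 10 most abundant genes held 10.9% ± 0.37 of all FPKM, and 342 genes held the upper 50%. Mt-co3, which encodes a subunit of cytochrome c oxidase, led with 7810.3, 9288 and 7121 FPKM, followed by another subunit of the same enzyme, Mt-co2, at 7090.2, 8173 and 6847 FPKM. Lcn2, a secreted protein that binds iron carriers of bacteria, stood at 4618, 6382 and 5398 FPKM. It was the most abundant transcript of the nuclear genome by its mean, although its lowest library lay within the range of Eef1a1, the elongation factor that brings amino acids to the ribosome, at 4565, 5180.4 and 4519 FPKM. Mgp, the matrix Gla protein that keeps vessel walls from calcifying, read 3239, 4561 and 4304 FPKM. Sparc, a collagen-binding glycoprotein, read 3956, 4024 and 3998 FPKM and was the steadiest of these genes. Bgn, the proteoglycan biglycan, read 4012, 3638 and 3879.8 FPKM. These libraries overlapped, so that Mgp, Sparc and Bgn have no order among them.

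Actb, the cytoskeletal beta-actin, stood at 4011, 2824 and 3458 FPKM, and Col1a1, a chain of type I collagen, at 3457, 2986 and 2941 FPKM. The gelatinase gene Mmp2, whose enzyme cuts basement membrane and denatured collagen, read 1929.8, 3012 and 2287 FPKM and was highest in replicate 2. Grem1, a secreted antagonist of bone morphogenetic proteins, read 2278, 1669 and 1912 FPKM. Apart from Actb, these genes encode secreted proteins. Further down the first 30 named genes came Vim (vimentin), C3 (the central complement component), Ccn2 (a matricellular growth factor), Thbs1 (thrombospondin), the chemokine Ccl7 and the pentraxin Ptx3. Thbs1 was at 2163, 926 and 1993 FPKM, with replicate 2 far under the other libraries. The smooth muscle gene Tagln, an actin-binding protein, closed the first 30 named genes at 1416, 1063 and 1418 FPKM. Between neighbours in this order the libraries were separate in only 2 of 29 pairs, after Mt-co2 and after Col1a1, and 24 of the 30 genes were in the first 30 of each library taken alone.

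**Figure D1:**
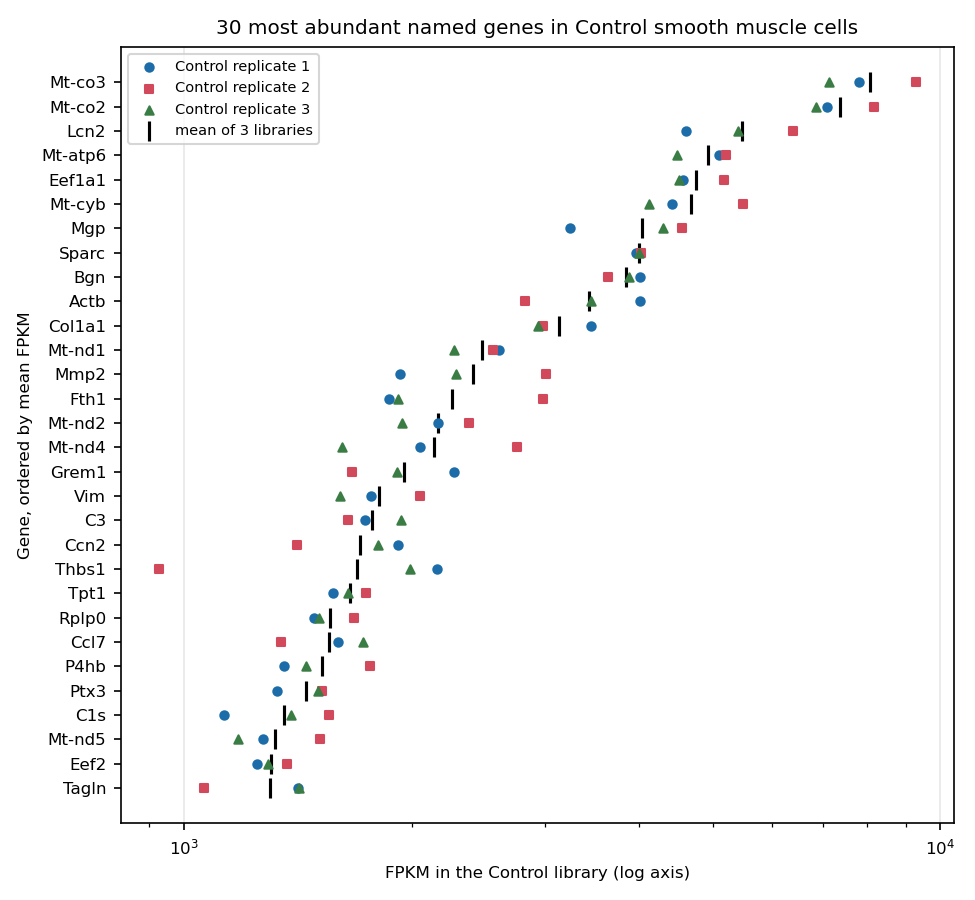
FPKM (log axis) of the 30 most abundant named genes in each of the 3 Control libraries, with the mean as a bar. Mt-co3 leads with 7121 to 9288 FPKM, Tagln closes the list at 1063 to 1418 FPKM, and most neighbouring genes overlap.

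The labelled cell type was checked against its markers. Of the 5 marker genes given for these cells, all were expressed in all 3 libraries. Tagln and Acta2, the smooth muscle alpha-actin, were high, with Acta2 at 779.9, 556 and 642 FPKM. Cnn1, the calponin that binds actin in smooth muscle, was at 76.4, 48.6 and 70.5 FPKM, with its lowest value in replicate 2. Myh11, the smooth muscle myosin heavy chain and the most restricted of these markers, was at 6.49, 5.19 and 6.28 FPKM, far below the other markers in every library. Lum, the proteoglycan lumican, which is shared with fibroblasts, stood at 461, 979 and 574 FPKM. The libraries of Lum and Acta2 overlapped, and Lum was highest where Acta2 was lowest, in replicate 2. Each gene reads the whole culture, and in bulk RNA fewer cells of a type and less RNA per cell cannot be told apart.

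Markers of adventitial fibroblasts, the cells of the outer vessel layer, were expressed for 12 of 14 genes, with a sum of 2187 to 3272 FPKM that was highest in replicate 2. Lum and Dcn (decorin, 408, 819 and 520.2 FPKM) led them, both proteoglycans that smooth muscle cells also make. Serpinf1, a secreted serpin, read 493, 542 and 508 FPKM, and Scara5, a ferritin receptor known from fibroblasts, read 328, 344 and 344 FPKM. Pdgfra, the alpha receptor for platelet-derived growth factor and a common fibroblast marker, was at 239, 289 and 269.9 FPKM. These 3 genes differed little between libraries. Other markers of the same cells were low or nearly without reads: Pi16 was at 3.14 ± 0.64 FPKM and Clec3b at 7.53 ± 0.23 FPKM. Dpt had 1, 3 and 1 counts and Cd34 had 2, 0 and 0 counts. Over the list, 6 genes reached 100 FPKM in all 3 libraries and the median was 72.5 FPKM, so that its members covered a wide range.

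Pericyte markers, those of the mural cells of small vessels, were expressed for 7 of 10 genes, with a sum of 351 to 397 FPKM. Most of that sum came from Pdgfrb, the receptor for PDGF-BB, at 199, 208 and 196 FPKM and from the aminopeptidase Anpep at 123, 159 and 139 FPKM. Rgs5 and Higd1b, which are commonly used to define pericytes, had no count. Notch3, a receptor of mural cells, read 0.29, 0.12 and 0.2 FPKM.

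Markers of endothelial cells were expressed for 2 of 15 genes, with Pecam1 not analysed here. These were Egfl7, a secreted vessel protein, at 11.9, 12.9 and 12.4 FPKM and the VEGF receptor gene Flt1 at 7.33, 4.48 and 7.67 FPKM. The defining genes Cdh5, Kdr and Tie1 had no count, and Vwf had 1, 3 and 0 counts. Among 16 leukocyte markers 3 were expressed, namely the endotoxin co-receptor gene Cd14 at 13.2, 19.5 and 17.7 FPKM, the lysosomal Cd68 at 2.03, 4.43 and 3.02 FPKM and the lysozyme gene Lyz2 at 1.93, 2.09 and 2.07 FPKM. Ptprc, which encodes the antigen CD45 carried by all leukocytes, had no count, nor had Cd163, Laptm5 and Tyrobp. The sums of the endothelial and leukocyte lists were 17.8 to 20.6 FPKM and 17.5 to 26.4 FPKM. None of 12 epithelial, 10 hepatocyte and 8 erythroid or platelet genes was expressed, and 3 further erythroid genes were not analysed here. Skeletal and cardiac muscle markers were expressed for 1 of 23 genes, the fast troponin gene Tnnt3 at 2.05, 3.48 and 3.06 FPKM, and Actc1, Myh6, Myh7, Myod1 and Myog had no count. Adipocyte markers were expressed for 2 of 10 genes, and these were the lipase gene Lpl at 86.4, 69.3 and 101 FPKM and the factor Cebpa at 5.30, 5.95 and 4.99 FPKM, while Adipoq and Pparg had no count. Schwann and neural markers were expressed for 2 of 13 genes, Tubb3 at 4.54 ± 1.4 FPKM and Mbp at 2.92 ± 0.47 FPKM, with Sox10 at no count.

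**Figure D2:**
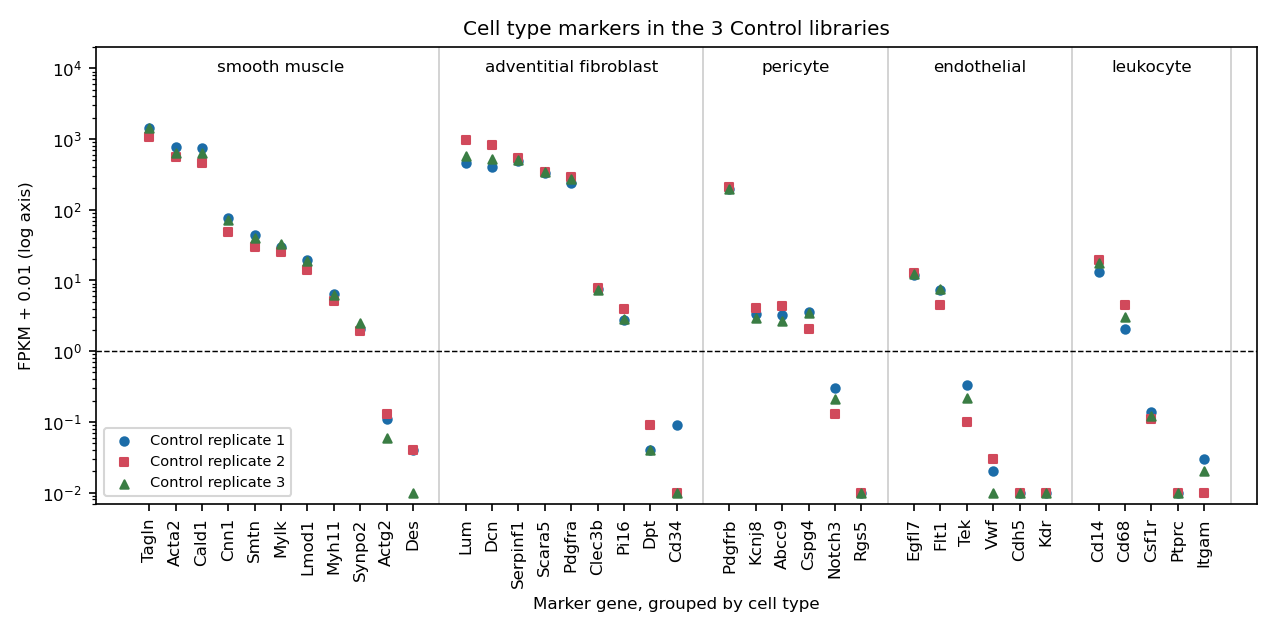
FPKM + 0.01 (log axis) of marker genes of 5 cell types in each Control library, with the dashed line at 1 FPKM and points at the bottom standing for 0. Smooth muscle genes run from Tagln above 1000 to Des near 0 and several fibroblast genes lie above 100. The endothelial genes Cdh5 and Kdr and the leukocyte gene Ptprc lie at 0, whereas Egfl7, Flt1, Cd14 and Cd68 lie above the dashed line.

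Contractile proteins were expressed for 20 of 29 gene models and together held 1.08 ± 0.21% of all FPKM. They ran over almost the whole range of levels. Behind Tagln and Acta2 came Cald1, the caldesmon that restrains myosin on the thin filament, at 754, 458 and 629 FPKM, and the tropomyosin gene Tpm2 at 453, 387 and 446 FPKM. The actin cross-linker gene Flna read 478, 261 and 438 FPKM and the regulatory myosin light chain Myl9 283, 239.6 and 288 FPKM. Tagln, Acta2, Cald1, Tpm2, Flna and Myl9 were all lowest in replicate 2. A middle group held the cytoskeletal linker Smtn at 43.3, 30.1 and 39.98 FPKM, the myosin light chain kinase Mylk at 30.02, 25.3 and 32.7 FPKM and the thin filament nucleator Lmod1 at 19.6, 13.9 and 19.0 FPKM. Some members were at or near the floor. Des, the muscle intermediate filament, had 1, 1 and 0 counts, and the enteric gamma-actin gene Actg2 had 2, 3 and 1 counts. Pln, which encodes phospholamban, a brake on the calcium pump of the sarcoplasmic reticulum, had 0, 5 and 1 counts. Synpo2, an actin-bundling protein, was nearer the threshold at 2.06, 1.91 and 2.47 FPKM.

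Of 25 regulators of these genes, 19 were expressed. Srf, the serum response factor, read 19.6, 18.2 and 18.7 FPKM and its signal-driven partner Mrtfa 20.5, 15.1 and 21.2 FPKM. Myocd, which encodes the muscle-restricted partner myocardin, stayed under 1 FPKM in every library at 0.74, 0.33 and 0.72 FPKM, from 52, 28 and 57 counts. Prrx1, a homeobox factor of mesenchymal cells, was the most abundant of the list at 356, 379 and 352 FPKM. Klf4, a zinc finger factor known to repress contractile genes, read 64.4, 58.9 and 53.0 FPKM and lay above Srf and Mrtfa in all 3 libraries. Gata6, a factor of vascular smooth muscle, read 20.5, 18.7 and 19.2 FPKM, whereas Gata4 and Tcf21 were at or near 0. The Notch targets Hey2 and Heyl were at 1.37 ± 0.14 and 0.0067 ± 0.012 FPKM.

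The genes of the synthetic state were expressed for 17 of 18 members. The median over all members was 207 FPKM, against 37.8 FPKM over all 29 contractile gene models, of which 9 were under 1 FPKM in every library. The median of 12.0 FPKM given above covers expressed genes only and is not a like measure. This list holds some of the most abundant genes above, so its level repeats them. Members of both lists were chosen with earlier results of these data known, so the medians do not rank the synthetic against the contractile set. Its other members included S100a4, a calcium-binding protein of motile cells, at 693, 805 and 766 FPKM and Spp1, the secreted phosphoprotein osteopontin, at 352, 407 and 382 FPKM. The hyaluronan receptor Cd44 read 88.8 ± 5.7 FPKM and the non-muscle myosin heavy chain Myh10 read 29.4 ± 6.5 FPKM. The 1 member not expressed by the rule was Eln, with 0.88, 1.10 and 1.26 FPKM, which crossed the threshold in 2 of 3 libraries.

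Among the collagens, 19 of 23 fibrillar and network chains were expressed, and Col1a1 alone exceeded all others by several fold. Col4a1 and Col4a2, the paired chains of basement membrane, read 673, 583 and 654 FPKM and 407, 331 and 409 FPKM. Col3a1, the fibrillar chain of stretchable tissue, read 452, 527 and 374 FPKM, and Col8a1, a network chain known from injured vessels, read 464, 334 and 399.9 FPKM. Col1a2, the partner of Col1a1 in type I collagen, was not analysed here. The cartilage chains Col2a1 and Col10a1 were near 0, at 0.0067 ± 0.012 FPKM and 0.0533 ± 0.05 FPKM, whereas Col11a1, which is shared between cartilage and other matrix, was at 84.1 ± 15 FPKM. Besides Bgn, Lum and Dcn, the small leucine-rich proteoglycans Prelp, at 318, 293 and 317 FPKM, and Epyc, at 80.6, 95.5 and 96.1 FPKM, were expressed. Ogn and Omd, of the same family, had no count.

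The elastic fibre list was expressed for 16 of 22 genes, and its parts were uneven. Ltbp2, a binding partner of fibrillin, read 779, 593 and 805 FPKM and Lox, the enzyme that cross-links collagen and elastin, read 772, 622 and 619.9 FPKM. The assembly protein gene Efemp2 read 401, 469 and 450.5 FPKM and the microfibril gene Fbn1 217, 186 and 202 FPKM. Against these, Eln, which encodes elastin itself, lay at 1.08 ± 0.19 FPKM, and the microfibril genes Mfap2 and Mfap4 had no count. Over the list, 7 genes reached 100 FPKM in all 3 libraries.

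Matricellular proteins and glycoproteins were expressed for 17 of 22 genes. Ccn2 read 1919, 1408 and 1803 FPKM and its relative Ccn3 864, 641 and 907 FPKM. Igfbp7, a secreted binding protein of the vessel wall, read 911, 1008 and 983 FPKM. Postn, which encodes periostin, was far lower at 26.9 ± 4.6 FPKM. Fn1, the gene of fibronectin, had no count in any Control library, and Tgfbi, another adhesive matrix protein, had 0.11, 0.31 and 0.05 FPKM. Cultured smooth muscle cells are known for fibronectin, and the reason for this 0 was not tested. Among proteases and inhibitors, Mmp2 was accompanied by its membrane-bound activator Mmp14 at 295, 433 and 314 FPKM and by its inhibitor Timp2 at 862, 979 and 884 FPKM. Timp1 read 422, 534 and 515 FPKM. Mmp3 was highest in replicate 2, at 3.24, 9.62 and 4.17 FPKM. The leukocyte proteases Mmp8 and Mmp12 had no count.

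Integrins, the receptors by which cells hold this matrix, were expressed for 10 of 25 chains. The common chain Itgb1 led at 547, 459.9 and 504.5 FPKM. The collagen-binding partner Itga11 read 417, 227 and 385 FPKM and Itga8, a chain of smooth muscle, read 114, 80.4 and 110.1 FPKM. Both alpha chains were lowest in replicate 2. Laminins, the adhesive trimers of basement membrane, were expressed for 7 of 10 chains, led by Lamc1 at 235, 199 and 259 FPKM, Lama4 at 134, 127 and 149 FPKM and Lamb1 at 133, 129 and 142 FPKM, which are chains of the laminins of vessel walls.

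A few chemokine transcripts were abundant in untreated cells. Of 34 CC and CXC chemokines 11 were expressed and 11 had no count, with a median of 0.128 FPKM, and 4 reached 100 FPKM in all 3 libraries. Of 28 genes of the NF-kB and cytokine list, 22 were expressed. Ccl7 read 1596, 1344 and 1723 FPKM and Ccl2 read 1214, 1147 and 1301 FPKM, both attractants of monocytes. The neutrophil attractant Cxcl1 was at 667, 943 and 869.7 FPKM and Cxcl12, which retains stem cells in their niche, at 591, 648 and 606 FPKM. These 4 exceeded 500 FPKM in every library. Il1rl1, the receptor of interleukin 33, read 325, 232 and 389 FPKM, and its ligand gene Il33 read 26.9, 21.9 and 31.5 FPKM. Il6 was at 53.2, 66.3 and 77.5 FPKM. The cytokine gene Tnf had no count, with Il1a at 0.05 ± 0.087 FPKM and Il1b at 0.0333 ± 0.058 FPKM. Ccl5, a chemokine of leukocytes, was at 0.0833 ± 0.072 FPKM.

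Complement genes, which mark microbes and dying cells, were expressed for 12 of 23 members (52.2%), with a median of 1.38 FPKM. That count is near the 53.1% over genes with a symbol of their own. Of the 23, 4 reached 100 FPKM in all 3 libraries and 5 had no count. C3 read 1733, 1646 and 1937 FPKM. The proteases of the classical pathway, C1s and C1r, were at 1131, 1553 and 1386 FPKM and 1112, 1356 and 1272 FPKM, and their inhibitor Serping1 was at 356, 504 and 419 FPKM. The recognition unit of the same complex, C1q, had no count for any of its chains C1qa, C1qb and C1qc, and the late components C5 and C9 had none. Lbp, which binds bacterial endotoxin, read 1114, 1168 and 1223 FPKM, and Clu (clusterin) read 1171, 1072 and 1315 FPKM.

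In the growth factor system to which the study's stimulus belongs, the PDGF receptors and some of the ligands were expressed. Ligands and receptors of the PDGF and VEGF families were expressed for 13 of 16 genes. The libraries of Pdgfra and Pdgfrb did not overlap, with Pdgfra above. Their ligand gene Pdgfa was at 24.4, 18.6 and 24.4 FPKM, while Pdgfb, which encodes the chain of PDGF-BB, had no count. On the VEGF side, the ligands Vegfa, at 115, 125 and 119 FPKM, and Vegfd, at 118, 132 and 105 FPKM, were high, whereas the endothelial receptor Kdr had no count. Ligands of the FGF family were expressed for 4 of 22 genes, led by the epithelial growth factors Fgf7 at 143, 162 and 148 FPKM and Fgf10 at 67.7, 80.0 and 68.6 FPKM. Of 19 Wnt ligands only Wnt4, at 18.4, 15.5 and 16.6 FPKM, and Wnt5a, at 12.8, 11.9 and 11.9 FPKM, were expressed.

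Receptors for vasoactive hormones were expressed for 18 of 33 genes (54.5%), near the 53.1% over genes with a symbol of their own. The angiotensin receptor Agtr1a stood out at 265, 259 and 265 FPKM, nearly the same in all libraries, and its rodent duplicate Agtr1b had no count. The thrombin receptor F2r read 126, 81.8 and 104 FPKM and Npr3, the clearance receptor for natriuretic peptides, 83.0, 64.5 and 75.8 FPKM. For endothelin, the B receptor gene Ednrb, at 33.5, 44.7 and 37.6 FPKM, lay above the A receptor gene Ednra, at 0.45, 1.71 and 0.82 FPKM, in all 3 libraries. Of the adrenergic receptors, Adra1a and Adrb1 had no count and Adra1d was at 0.24 ± 0.07 FPKM. The serotonin receptor Htr2a read 23.6, 23.2 and 21.7 FPKM and the vasopressin receptor Avpr1a 11.8, 13.2 and 9.40 FPKM.

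Ion channels of smooth muscle were expressed for 18 of 40 genes (45%), against the 53.1% over genes with a symbol of their own. Their median over all members, silent ones included, was 0.51 FPKM. The accessory calcium channel subunit Cacnb3 and the stretch-gated channel Piezo1 led, at 34.2, 37.8 and 36.8 FPKM and 34.0, 29.2 and 34.0 FPKM. Cacna1c, the pore of the L-type calcium channel that starts contraction, was at 3.36, 2.27 and 3.74 FPKM, and Cacna1g, a T-type pore, was above it in all 3 libraries at 8.43, 6.92 and 10.6 FPKM. The large-conductance potassium channel was near 0 in both parts, with 4, 3 and 1 counts of its pore Kcnma1 and 0, 2 and 0 counts of its smooth muscle subunit Kcnmb1. The ATP-sensitive channel, made of Kcnj8 and Abcc9, was at 3.48 ± 0.56 and 3.41 ± 0.81 FPKM. Of all 91 potassium channel subunits 10 were expressed, and of 10 voltage-gated sodium channels none was.

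The study's drug acts on cyclooxygenase-2 and soluble epoxide hydrolase, enzymes that turn arachidonic acid into lipid mediators, and the transcripts of both lay under the median of expressed genes in every library. Ptgs2, which encodes the inducible cyclooxygenase, read 3.97, 8.74 and 4.88 FPKM and was highest in replicate 2. Ptgs1, the constitutive form, read 153, 142 and 164 FPKM and lay above it in every library. Ephx2, the gene of the soluble hydrolase, read 2.68, 4.17 and 3.41 FPKM and its microsomal relative Ephx1 8.5, 8.95 and 10.7 FPKM. The prostanoid list was expressed for 13 of 22 genes, and the prostacyclin synthase gene Ptgis was not analysed here. The prostaglandin E synthase genes Ptges3, at 137, 151 and 134 FPKM, and Ptges, at 14.4, 23.0 and 13.9 FPKM, were expressed, and so was Ptgfr, the receptor of prostaglandin F, at 40.2, 38.3 and 42.5 FPKM. The prostaglandin D synthases Hpgds and Ptgds had no count. In the epoxygenase list 5 of 21 genes were expressed, with Cyp1b1 at 317, 258 and 295 FPKM far above the reductase gene Por at 30.5, 30.6 and 32.0 FPKM, and Cyp2j4, an arachidonic acid epoxygenase, at 0.657 ± 0.14 FPKM. In the lipoxygenase branch 1 of 13 genes was expressed, Lta4h, whose enzyme makes leukotriene B, at 31.7, 36.4 and 35.8 FPKM, and Alox5 had no count.

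Most of the listed division genes were expressed in this low-serum medium, and no other serum level was compared. G2/M genes were expressed for 20 of 24 members (83.3%) and S phase genes for 21 of 25 members (84%). Both shares lay above the 53.1% over genes with a symbol of their own. The medians over all members were 2.74 FPKM for G2/M genes and 6.05 FPKM for S phase genes. Cdk1, the kinase of mitotic entry, read 20.2, 15.9 and 19.3 FPKM and Top2a, the topoisomerase of dividing cells, 10.6, 4.59 and 7.28 FPKM. The proliferation marker Mki67 read 4.03, 1.68 and 3.10 FPKM. The G2/M sum was lowest in replicate 2, at 63.6 FPKM against a highest sum of 111 FPKM. The replication clamp gene Pcna read 36.1, 38.8 and 33.7 FPKM. Arrest genes were expressed for 16 of 17 members with a median of 14.7 FPKM. The CDK inhibitor genes Cdkn1a, at 73.2, 66.2 and 84.2 FPKM, and Cdkn1b, at 57.6, 72.2 and 63.4 FPKM, both lay above Cdk1 and Mki67 in every library. The growth-arrest genes Gas6 and Txnip read 366, 437 and 392 FPKM and 132, 170.5 and 164 FPKM.

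**Figure D3:**
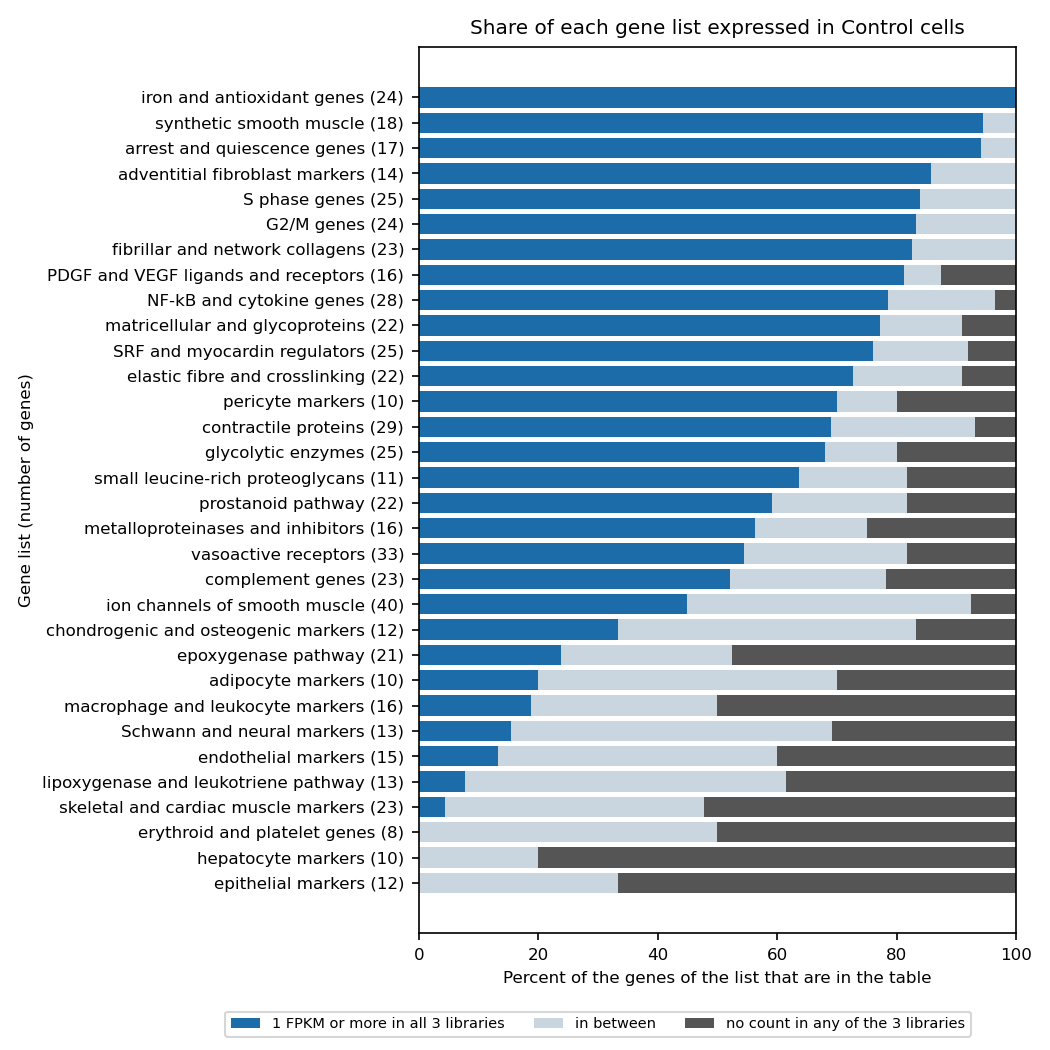
Percent of the genes of each list that were expressed (at least 1 FPKM in all 3 Control libraries), lay between, or had no count in any Control library, with the number of genes in brackets. Iron and antioxidant genes stand at 24 of 24 expressed, contractile proteins at 20 of 29, and epithelial and hepatocyte markers at 0.

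Of the housekeeping programmes, cytosolic ribosomal proteins and the mitochondrial genome held the larger shares of all FPKM. Cytosolic ribosomal proteins were expressed for 90 of 96 gene models and held 7.76 ± 0.77% of all FPKM, a value made uncertain by near-identical copies of these genes. The mitochondrial genome held 7.95 ± 0.71%, from 14 of 37 gene models. Glycolytic enzymes were expressed for 17 of 25 genes and held 0.996 ± 0.044%, a share without Gapdh, a glycolytic gene that is usually abundant and was not analysed here. The pyruvate kinase gene Pkm read 851, 853 and 882 FPKM, the aldolase gene Aldoa 783, 871 and 813 FPKM and Ldha, the lactate dehydrogenase of muscle type, 743, 753 and 807 FPKM. Iron and antioxidant genes were expressed for all 24 members. Ferritin heavy chain gene Fth1, which stores iron, read 1866, 2988 and 1921 FPKM, with replicate 2 highest. Sod2, the mitochondrial superoxide dismutase, read 1045, 1149 and 1055 FPKM, and Gpx3, a secreted glutathione peroxidase, read 552, 904 and 602 FPKM.

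The deposited annotation gave a further view of the classes, which were chosen after the data were seen. Genes annotated to the extracellular space held 18.0% ± 0.36 of all FPKM, and 501 of 1592 (31.5%) were expressed. That count is near the 32.2% over all genes in the table and under the 53.1% over genes with a symbol of their own. Genes annotated to the extracellular matrix held 5.18% ± 0.21, with 99 of 236 (41.9%) expressed. Transcription factors held 1.75% ± 0.05, with 497 of 936 (53.1%) expressed, the share also found over genes with a symbol. The extracellular space and transcription factor classes differ in size, so their close numbers of expressed genes stand for unlike expressed shares, 31.5% and 53.1%. Their shares of FPKM were 18.0% and 1.75%. Id3, an inhibitor of basic helix-loop-helix factors, read 296, 387 and 319 FPKM and Cebpb, a factor of acute-phase genes, 187, 209 and 168 FPKM. Among G-protein coupled receptors 41 of 1690 (2.43%) were expressed.

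Hox genes, which record the position of a tissue along the body axis, were expressed for 10 of 35 members. These included 6 genes of the B cluster. Hoxb7 was the most abundant at 18.5, 26.4 and 18.5 FPKM, Hoxb4 read 10.0, 11.2 and 11.1 FPKM and Hoxb2 read 8.29, 9.69 and 9.39 FPKM. Hoxb3, Hoxb6 and Hoxb8 followed at 7.19 ± 0.08, 4.32 ± 0.49 and 1.34 ± 0.25 FPKM. From the C cluster, Hoxc6 read 14.4, 16.01 and 14.1 FPKM, Hoxc8 7.83, 7.40 and 7.34 FPKM and Hoxc4 1.77, 2.32 and 2.88 FPKM. Hoxd13, from the tail end of the D cluster, read 3.45, 2.52 and 3.62 FPKM, and no gene of the A cluster was expressed.

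Large families of sensory and barrier tissues were almost without reads. Of 1131 genes with a symbol of the olfactory receptor pattern, 1121 had no count and 1 was expressed, Olr1 at 4.90, 1.86 and 3.12 FPKM. In rat the symbol Olr1 stands for a receptor of oxidized lipoprotein, so it was not read as an olfactory receptor. All 47 defensins had no count. Of 149 vomeronasal receptors 146 had no count and none was expressed. Of 47 keratins 36 had no count and none was expressed in all 3 libraries, although Krt8, a keratin of simple epithelia, reached 0.85, 1.58 and 1.33 FPKM. Among 53 taste and trace amine receptors Tas1r2 was the only expressed gene, at 10.4, 7.89 and 9.79 FPKM from 1087, 1003 and 1137 counts. Cytochrome P450 genes were expressed for 9 of 69 members, and Cyp1b1 made up most of their sum of 424 to 448 FPKM. Of Y-linked genes, Eif2s3y read 38.6, 42.2 and 37.8 FPKM and Kdm5d 9.94, 10.6 and 10.8 FPKM, whereas Ddx3y had 0, 0 and 1 counts and Usp9y had none.

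Within protein families, which member carried the level was read as a share of the family's summed FPKM in each library. Non-muscle forms led in several of the cytoskeletal families. Actb made up 63.6% ± 1.2 of the actins, Actg1 24.1% ± 1.5 and Acta2 12.2% ± 0.47, although near-identical coding sequences make this split uncertain. Among tropomyosins Tpm4, a non-muscle form, held 44.3% ± 1.1 and Tpm2 33.8% ± 0.74. Among calponins the widely expressed Cnn3 and Cnn2 held 47.0% ± 4.5 and 39.8% ± 1.8, and the smooth muscle form Cnn1 13.2% ± 2.7. The transgelins went the other way, with the smooth muscle form Tagln at 64.9% ± 4.6 against 35.1% ± 4.6 for Tagln2. Among myosin heavy chains, Myh10 held 81.9% ± 1.6 and Myh11 16.95% ± 1.6. Myh9 was listed at 0.353 ± 0.065 FPKM, but a gene model with a similar symbol, Myh9l1, read 25.3, 12.0 and 34.7 FPKM, so that the shares of this family are uncertain. With Myh9l1 counted in the family, an alternative chosen after seeing the data, Myh10 held 50.2% ± 6.4 and Myh11 10.5% ± 2.3. In FPKM, replicate 2 was the lowest library for Actb, Actg1, Acta2, Tpm4, Tpm2, Tagln, Cnn1, Myh10 and Myh11.

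Families of junctions, pumps and secreted regulators were mostly carried by 1 or 2 members. Among gap junction proteins Gja1 held 67.2% ± 2.0 and Gja5, a connexin of arteries, 30.7% ± 2.2. The calcium pumps were read mainly from Atp2a2 (89.3% ± 0.95). Vim held 94.1% ± 0.82 of the intermediate filaments. The coat proteins of caveolae, the flask-shaped pits of the smooth muscle membrane, were spread over Cavin1 (46.3% ± 2.7), Cav1 (26.5% ± 0.73) and Cavin3 (23.9% ± 2.8), with the muscle form Cav3 at 0.35 ± 0.28 FPKM. Igfbp7 held 91.2% ± 1.8 of the IGF binding proteins and Notch2 97.5% ± 0.28 of the Notch receptors. The 3 TGF-beta ligands were at like levels and overlapped, with Tgfb3 at 107, 56.8 and 74.7 FPKM, Tgfb1 at 70.2, 72.0 and 64.3 FPKM and Tgfb2 at 85.4, 46.8 and 65.3 FPKM.

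**Figure D4:**
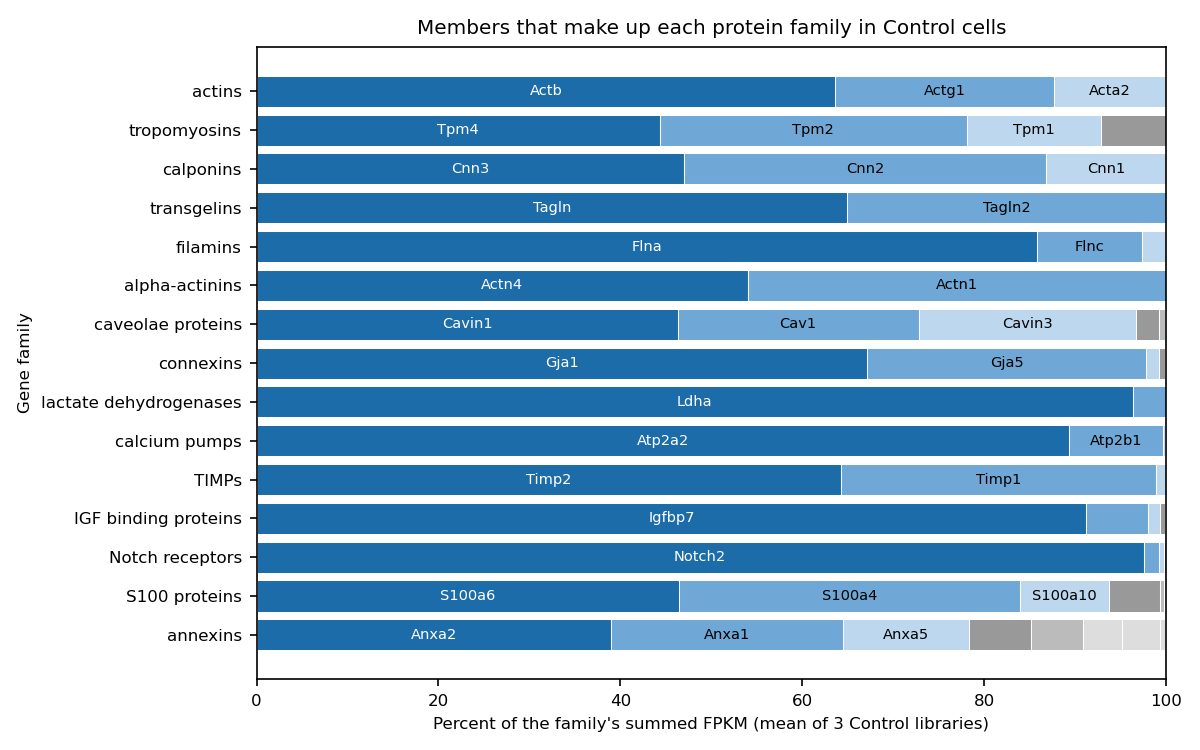
Share of each family's summed FPKM held by its members, as the mean of the 3 Control libraries, with the leading members named. Notch2, Ldha and Igfbp7 each hold over 90%, whereas actins, calponins and caveolae proteins are shared by several members.

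The sequences at the start of the genes were set beside their levels to describe what else genes of a like level share. RefSeq promoters of the rat build GRCr8, from 250 bases before to 50 bases after the start, were matched by symbol to 12885 genes. The ratio of observed to expected CpG, which is high in the CpG islands of widely expressed genes, had a median of 0.278 over 2804 genes without a count, 0.507 over 2357 genes under 1 FPKM, and 0.770 over 3365 genes at 1 to 10 FPKM. It was 0.818 at 10 to 100 FPKM, 0.803 at 100 to 500 FPKM and 0.786 over the 87 genes above 500 FPKM. Above 1 FPKM the ratio thus hardly moved with the level. TATAAA is the core of the TATA box, which lies before the start of transcription and helps to fix its place. These letters were searched on the strand of the gene in the 60 bases before the start. They were found for 7.45% of genes without a count, 4.03% under 1 FPKM, 1.04% at 1 to 10 FPKM, 1.05% at 10 to 100 FPKM, 5.17% at 100 to 500 FPKM and 11.5% (10 of 87) above 500 FPKM. Over all 24206 RefSeq promoters the share was 3.03%. Both ends of the scale of levels thus held more matches than the middle, with only 10 genes behind the highest share. A match is a description of letters and not a shown binding site.

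**Figure D5:**
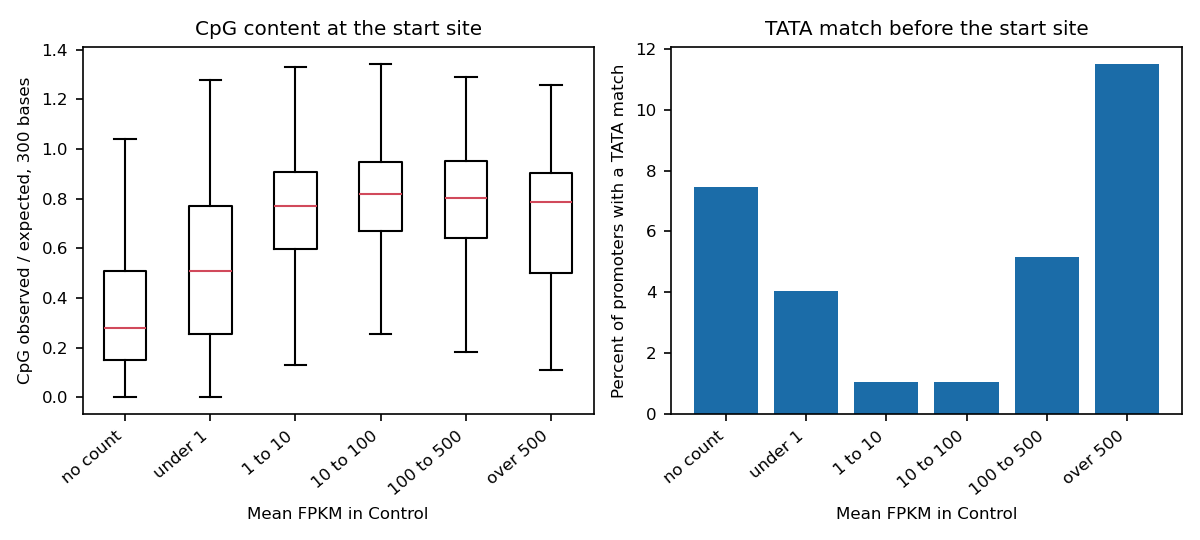
Left, ratio of observed to expected CpG in 300 bases around the start for 6 classes of mean Control FPKM, with boxes from quartile to quartile, the median as a line and whiskers to the last promoter within 1.5 box lengths. Right, percent of promoters with TATAAA in the 60 bases before the start, which is 1.04% at 1 to 10 FPKM and 11.5% above 500 FPKM.

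The 60 bases before the start are shown for abundant genes with such a match, 5′ to 3′ on the strand of the gene with the match in capitals, since they show how a like core sits in genes of unlike function. They are the matricellular Ccn2 (chr1:22624615-22624674, minus strand), the chemokine Ccl7 (chr10:67514035-67514094, plus strand), the elongation factor Eef2 (chr7:9189239-9189298, minus strand), the ribosomal stalk protein Rplp0 (chr12:46718391-46718450, minus strand) and the calcium-binding S100a4 (chr2:178388469-178388528, plus strand).
Ccn2: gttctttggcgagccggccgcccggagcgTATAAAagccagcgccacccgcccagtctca
Rplp0: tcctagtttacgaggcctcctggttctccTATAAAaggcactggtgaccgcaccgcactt
Ccl7: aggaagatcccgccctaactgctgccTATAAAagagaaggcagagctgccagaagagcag
Eef2: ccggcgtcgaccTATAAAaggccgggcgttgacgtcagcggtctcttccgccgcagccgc
S100a4: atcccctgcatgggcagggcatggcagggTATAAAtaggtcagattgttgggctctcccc
In Ccn2, Rplp0 and S100a4 the match began 31 bases before the start, in Ccl7 34 bases and in Eef2 48 bases before it. The other genes above 500 FPKM with a match were Calr, Rps2, Mt2A, Wfdc18 and Anxa2. The surroundings differed. Ccl7 and S100a4 lay in promoters poor in CpG, with ratios of 0.170 and 0.211, whereas Eef2 and Rplp0 lay in CpG-rich ones, with 0.997 and 0.884.

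Higher levels also came without these letters, in Lcn2 (chr3:36081781-36081840, minus strand) and Sparc (chr10:40038817-40038876, minus strand). They are shown with the smooth muscle gene Acta2 (chr1:241172504-241172563, minus strand), which has no TATAAA either, and with 2 genes without a count, the liver gene Alb (chr14:17906980-17907039, minus strand) and the skeletal muscle gene Myog (chr13:48297416-48297475, plus strand).
Lcn2: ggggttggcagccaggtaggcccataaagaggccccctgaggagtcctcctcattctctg
Sparc: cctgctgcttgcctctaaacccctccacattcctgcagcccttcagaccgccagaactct
Acta2: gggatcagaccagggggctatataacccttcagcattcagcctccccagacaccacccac
Alb: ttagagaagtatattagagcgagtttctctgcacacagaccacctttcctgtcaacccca
Myog: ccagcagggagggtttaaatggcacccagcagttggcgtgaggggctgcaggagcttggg
The Acta2 window holds a related form, TATATAA, which begins 42 bases before the start and which a search for TATAAA does not find. On the strand of the gene, 0.777% of all RefSeq promoters held TATATAA in the same 60 bases, and 77 of these 188 promoters held TATAAA as well. This form was searched after the sequences were seen. Lcn2, Sparc and Acta2 have CpG ratios of 0.124, 0.108 and 0.170, which are under the median of the genes without a count. The smooth muscle markers Cnn1 and Mylk were likewise poor in CpG, with 0.223 and 0.0945, while Tpm2 and Csrp1 had 0.677 and 0.681, near the median of 0.687 over all matched genes. Tpm1, Actn1 and Vcl lay above that median, with 0.741, 0.772 and 0.999.

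The 3 libraries were close for most genes and far apart for a few. Of 7938 genes with a mean of at least 5 FPKM, 7286 (91.8%) had a highest library under 1.5 times the lowest, and 124 (1.56%) had one at least 2 times the lowest. The named genes with the widest ratios did not share a single high library. Zfp655, a zinc finger gene, read 30.2, 0.5 and 0.73 FPKM, high in replicate 1 only. Map3k7, a kinase of the TGF-beta and NF-kB pathways, read 2.68, 0.28 and 15.8 FPKM, high in replicate 3 only. The ribosomal protein genes Rpl39, at 51.3, 2.01 and 1.80 FPKM, and Rpl7a, at 30.9, 42.4 and 222 FPKM, were each high in a single library. Mrpl53, of the mitochondrial ribosome, read 8.99, 12.0 and 0 FPKM and so was listed at 0 in replicate 3. Rpph1, the RNA of ribonuclease P, read 0.97, 30.4 and 2.82 FPKM and followed the other structured RNAs in replicate 2. Tma7 and Hnrnpab, whose counts were not whole numbers in some libraries, read 25.9, 8.06 and 3.92 FPKM and 4.69, 4.09 and 24.98 FPKM.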

How the data were processed

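RNA was enriched for poly(A) transcripts, primed at random and sequenced in pairs, per the labels' protocols. Per the submitters' processing notes, cutadapt 1.9.1, HISAT2 2.0.1 and HTSeq 0.6.1 were used. The notes name mm10, a mouse build, whereas the identifiers are those of rat, so no coordinates of the table are given. The authors deposited expected counts per gene, which are fractional in a Control library for 745 genes, and the strand used for counting is not given in the sources used here. The authors also deposited FPKM and exonic lengths, from which FPKM could be recomputed to within 0.005.

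Levels were read from the deposited FPKM with Python 3.11.15 and pandas 2.3.3, without a test between groups. For the spread and for other scalings, rounded counts were used with edgeR 4.0.16 (TMM) and DESeq2 1.42.0 in R 4.3.3. The detection floor was 3 counts per library. The calls of expressed genes and of genes without a count, and the trend with length, were tested on simulated data. These data held sampling noise only, less spread than the real libraries. List and family sums, promoter searches and the edgeR and DESeq2 steps were not tested in this way. Neighbours in an order are separate only where their libraries do not overlap.

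Named were the 30 most abundant genes with a symbol, the leading 4 members of each of 77 gene lists, defining markers of other cell types, family members, the 8 most variable genes with a mean of at least 5 FPKM, and Acta2, Tagln, Myh11, Cnn1, Lum, Ptgs2, Ephx2, Pdgfrb, Spp1, Klf4 and Mki67. Other genes named were picked for their known role after their values were seen, and some that the rule names are given only in counts or are not reported here. The members and lists were chosen with earlier results of these data known, and the 8 complexes, structured RNAs and annotation classes after the table was opened.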

Additional observations from a re-analysis of the deposited data

How the results depend on the processing

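The number of expressed genes ran from 10574 to 10662 with 1 library left out, was 11297 on FPKM rescaled to an equal total (TPM), 10496 with TMM and 10495 with DESeq2 library sizes, and was 11243 and 7544 at thresholds of 0.5 and 5 FPKM. Genes without a count numbered 17338 to 17454 with 1 library left out and 18658 where up to 3 counts were allowed. Among genes with a symbol of their own they numbered 4967, an alternative chosen after seeing the data that holds fewer genes by construction. The share of the 10 most abundant genes was 10.7% to 11.1% with 1 library left out, 8.34% without the mitochondrial genome and 8.59% as a share of counts. The upper 50% was held by 335 to 354 genes with 1 library left out and by 434 without the mitochondrial genome. Of 77 lists, the count of expressed members moved by over 1.5 times for 5 at 0.5 FPKM and 21 at 5 FPKM, and for 2, 1 and 1 without replicate 1, 2 and 3. On TPM, levels of 806 listed genes were 2.06 to 2.23 times higher, and TMM and DESeq2 moved none of them by more than its SD. Leaving out replicate 1, 2 or 3 moved 6, 20 and 4 of these levels by over 1.5 times. No paired analysis was possible because no result comes from a test between groups. With 3 libraries the SD itself is imprecise, and levels under about 1 FPKM can rest on few counts, depending on exonic length.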

Other observations

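Several large families are set beside the 53.1% of genes with a symbol of their own that were expressed. Solute carriers, the transporters of small molecules, were near that share, with 181 of 360 genes (50.3%) expressed. Their summed level was 4550 to 4734 FPKM, and the mitochondrial phosphate carrier gene Slc25a3 read 247, 274 and 239.8 FPKM. The amino acid transporter genes Slc38a2 and Slc3a2 read 193 ± 9.4 and 123 ± 2.3 FPKM. Zinc finger proteins named Zfp or Znf were expressed for 198 of 268 genes (73.9%) but held 0.342% ± 0.012 of all FPKM, with a median of 3.23 FPKM. Protocadherins were expressed for 19 of 49 genes (38.8%). Genes of the rat major histocompatibility complex (RT1) were expressed for 7 of 31 gene models (22.6%), whose near-identical copies make single levels uncertain.

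Of 12 chondrogenic and osteogenic markers 4 were expressed, 6 had counts without reaching 1 FPKM in all 3 libraries and 2 had no count. The expressed genes included the factor genes Sox9 at 8.73, 4.37 and 7.32 FPKM and Runx2 at 6.93, 6.45 and 6.32 FPKM, and the genes without a count were Dmp1 and Bglap.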
